A study of Arabidopsis thaliana with 12 samples.

Results

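The leaves of an Arabidopsis thaliana line that overexpresses the transcription factor gene ERF34 were compared with wild-type leaves in the absence of added salt. The comparison used 6 of the 12 libraries of the series, 3 from the overexpressor (OX, mock) and 3 from wild type (Col, mock), chosen by their labels alone, and all 33597 named genes of the count table. The overexpressor is 1 transgenic line, ERF34-OX#1, in the Col ecotype. It carries the coding sequence of ERF34 behind the constitutive CsVMV promoter, fused at its N-terminus to GFP. The wild type carries no transgene. The tissue was the third and the fourth rosette leaves. The other 6 libraries, 3 per genotype, were from leaves that had been detached at 16 DAE (not spelled out in the labels) and kept for 1 day afloat on MES buffer (3 mM) with 100 mM NaCl. They are used here to share the estimate of spread and as a second look at the same genotype difference. Whether mock leaves were detached and floated is not stated in the labels. By its title, the series concerns a role of ERF34 against leaf senescence under salt. The mock comparison shows how the 2 genotypes differed without added salt.

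ERF34 belongs to the AP2/ERF family of plant transcription factors, and the reference annotation places it in the DREB branch of that family, near TINY. DREB proteins are known for binding the dehydration-responsive element, a short promoter sequence with the core letters CCGAC, and for acting on drought, cold and salt responses in leaves. The ERF branch of the same family is known instead for binding the GCC box of defence and ethylene-responsive promoters.

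The libraries held 12704898, 10425430 and 12402241 counts on named genes in OX mock, against 15389027, 16249983 and 16704329 in Col mock, so every OX library was the shallower. A gene at 0 counts in a group could still have had up to 0.0833 counts-per-million (CPM) in OX mock and up to 0.0641 CPM in Col mock, if 3 counts in all are taken as the most that a 0 allows, which covers counting error only. Plastid-encoded genes took 0.410%, 0.259% and 0.252% of counts in OX mock, against 0.493%, 0.329% and 0.38% in Col mock. The summed level of 40 nuclear light-harvesting and photosystem genes was 74520 to 94590 CPM in OX mock and 89000 to 92980 CPM in Col mock. Of 7 marker genes of roots, flowers and meristems, 4 had no counts in any mock library, and the 7 summed to at most 0.866 CPM in OX mock and 0.644 CPM in Col mock. No marker of guard cells and epidermis, of vascular tissue or of dividing cells passed the test in either fit described here.

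The transgene's own gene was far above wild type in every library. ERF34 (AT2G44940, a single exon at chr2:18537177-18538479, plus strand, assembly TAIR10.1) had 997.7, 1073 and 1081 CPM in OX mock, against 9.57, 2.96 and 13.9 CPM in Col mock. The groups lie far apart, and the Col library of replicate 2 is the lowest. The rise was 119-fold (log2 6.89 ± 0.60 SE, adjusted p = 0.00254 in edgeR's quasi-likelihood test with Benjamini-Hochberg adjustment). In NaCl the levels were 768, 1028 and 1006 CPM in OX and 16.4, 5.94 and 16.7 CPM in Col. Counts on this gene do not separate transcripts of the transgene from those of the resident gene. Of 10 listed members of its DREB subgroup, 7 reached the level needed for testing, and ERF34 was the 1 that passed. TINY2, a relative with a known part in stress responses, had 3.22, 1.46 and 3.39 CPM in OX mock and 1.25, 0.515 and 2.72 CPM in Col mock, which overlap. AT3G16280 had 3.6, 1.17 and 2.52 CPM in OX mock and 2.51, 0.966 and 2.17 CPM in Col mock, which overlap too.

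Few genes differed in the fit that takes its spread from all 12 libraries. Of 18886 genes tested, 19 passed an adjusted p of 0.05, or 0.101%. There were 12 higher in OX (0.0635% of those tested) and 7 lower (0.0371%). In all 19 the 3 libraries of one genotype lay beyond the 3 of the other. Passing the test favours such a separation, so it is not separate support. Several of the lower genes were close to absent in OX. In bulk leaf RNA, fewer cells that express a gene and less RNA per cell cannot be told apart. With 1 transgenic line and a wild type without transgene, effects of ERF34 and other differences of the line cannot be told apart either. The count rests on all 6 libraries. Leaving out OX replicate 1, 2 or 3 gave 3, 11 or 3 calls, and leaving out Col replicate 1, 2 or 3 gave 3, 4 or 4. ERF34 and MRD1 were called in all 6 of those fits, and each of the other 17 was lost in at least 2.

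MRD1 (AT1G53480, a small protein gene first described from a mutant that accumulates methionine) was nearly lost from the overexpressor. It had 1.07, 0.683 and 1.42 CPM in OX mock, against 37.3, 42.5 and 35.0 CPM in Col mock. That is 35.4-fold lower (log2 -5.14 ± 0.27 SE, adjusted p = 2.26e-05), the smallest adjusted p of the comparison. MRD1 lies at chr1:19963047-19964712 on the minus strand and overlaps AT1G53490 and AT1G07887 on the plus strand. AT1G53490 encodes HEI10, a RING protein needed for meiotic crossovers, and it was lower as well, with 0.689, 0.975 and 0.945 CPM in OX mock and 4.16, 2.90 and 3.47 CPM in Col mock (4.02-fold, adjusted p = 0.0368). The strand setting of the counting is not given in the sources used here, so reads of these genes may be mixed. On the other side AT1G53490 meets MUM4, a gene of cell wall and mucilage sugar synthesis, which moved the other way and averaged 71.2 CPM in OX mock and 41.1 CPM in Col mock.

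QQS (AT3G30720, a short orphan gene known to affect leaf starch) had 3.98, 2.44 and 2.84 CPM in OX mock, against 14.9, 10.4 and 21.9 CPM in Col mock. It was 5.06-fold lower (log2 -2.34 ± 0.30 SE, adjusted p = 0.0212). The non-coding RNA AT2G01422 had 0.0765, 0.0975 and 0.158 CPM in OX mock and 6.4, 6.12 and 8.73 CPM in Col mock (adjusted p = 0.00858). The overexpressor libraries hold only a few reads of it. AT5G24240, annotated as a phosphatidylinositol 4-kinase gamma-like protein, had 0.842, 0.390 and 0 CPM in OX mock against 15.0, 15.5 and 15.8 CPM in Col mock (36.5-fold lower, adjusted p = 0.0368). Here the Col libraries are alike while those of the overexpressor are close to nothing.

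The 2 remaining genes are pseudogenes. AT2G07080 had 3.14, 2.44 and 1.81 CPM in OX mock and 6.74, 6.51 and 7.49 CPM in Col mock (2.80-fold lower, adjusted p = 0.0276). AT3G60170 had no count in any OX mock library, against 1.12, 0.902 and 0.991 CPM in Col mock, or at least 12.1-fold lower with 3 counts over the group as the floor (adjusted p = 0.0276). One protein gene with no known role, AT5G41660 (chr5:16656708-16658405, plus strand), was also silent in all 3 OX mock libraries while Col mock had 3.04, 10.7 and 11.8 CPM, at least 102-fold more on the same floor. It missed the threshold in the 12-library fit (adjusted p = 0.103) and passed when libraries were paired by replicate number (adjusted p = 0.020). No gene with a mean of 1 CPM or more in OX mock was at 0 counts throughout Col mock.

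Beside ERF34, the genes that were higher in OX had varied annotations. BOR5 (AT1G74810, of the borate transporter family) had 48.9, 61.4 and 74.0 CPM in OX mock, against 16.7, 21.4 and 13.7 CPM in Col mock. It was 3.56-fold higher (log2 1.83 ± 0.24 SE, adjusted p = 0.0244), the largest rise after ERF34. XIB (AT1G04160), a class XI myosin that moves organelles along actin, had 4.90, 7.12 and 5.91 CPM in OX mock and 1.58, 1.80 and 2.23 CPM in Col mock (3.17-fold, adjusted p = 0.0176). ARP9, a nuclear actin-related protein gene, had 23, 22.9 and 26.5 CPM in OX mock and 11.2, 8.37 and 11.3 CPM in Col mock (2.35-fold, adjusted p = 0.0212). In all 3 the lowest OX library is well above the highest Col library.

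NPC2, a phospholipase C that cleaves membrane phospholipids, had 10.1, 8.68 and 10.8 CPM in OX mock and 3.76, 4.32 and 4.33 CPM in Col mock (2.38-fold, adjusted p = 0.0276). AT5G05400, a receptor gene of the NB-ARC and leucine-rich repeat class of plant immunity, had 3.44, 2.44 and 2.28 CPM in OX mock and 0.726, 0.837 and 0.805 CPM in Col mock (3.43-fold, adjusted p = 0.0352). AT2G39530, a membrane protein gene of family UPF0497, had 25.3, 13.9 and 22.5 CPM in OX mock and 4.95, 6.25 and 7.68 CPM in Col mock (3.27-fold, adjusted p = 0.030). These 3 were separated by genotype in every library. The other 5 rose by 2.04- to 2.68-fold. They were AT2G45720 (an armadillo-repeat protein), AT3G19470 (an F-box protein), AT1G24735 (a methyltransferase that uses S-adenosylmethionine), AT1G58590 (a non-coding RNA) and AT2G16595 (a subunit of the translocon-associated complex of the endoplasmic reticulum).

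**Figure D1:**
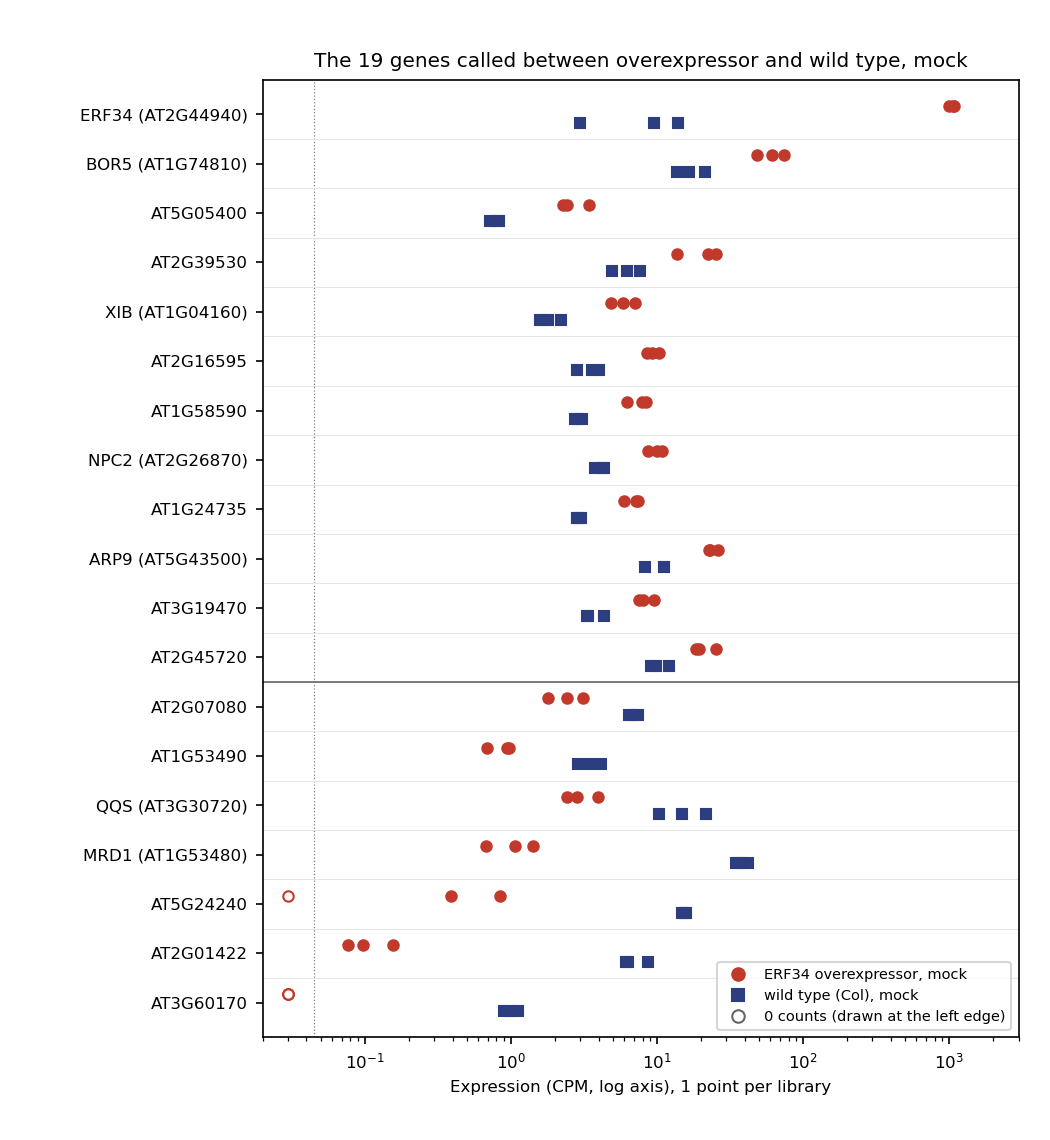
Expression of the 19 genes called between the overexpressor and wild type in mock leaves, in CPM on a log axis, with 1 point per library (red circles for OX, blue squares for Col, open circles for 0 counts). The 12 genes above the line were higher in OX and the 7 below it lower, and no gene has overlapping groups.

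The genotype difference in NaCl comes from 6 libraries that share none with the mock comparison. Both comparisons take each gene's spread from all 12 libraries and use the same transgenic line, so they are not fully independent. In NaCl 829 of the 18886 genes were called (4.39%), 390 higher in OX (2.07%) and 439 lower (2.32%). Of the 19 mock genes, 17 were called in NaCl as well, 16 of them in the same direction, and 18 had the same sign. All 7 lower genes were called lower again, and 9 of the 12 higher genes were called higher again. MRD1 had 0.448, 0.704 and 0.246 CPM in OX and 42.0, 37.7 and 31.0 CPM in Col in NaCl. AT3G60170 had 1 read in the 3 OX libraries in NaCl, against 6.21, 6.94 and 9.30 CPM in Col. In NaCl AT5G41660 again had none in OX, against 15.6, 5.35 and 7.28 CPM in Col. BOR5 had 13.2, 23 and 22.1 CPM in OX and 5.18, 5.35 and 4.2 CPM in Col in NaCl, so its level in both genotypes was below that in mock leaves while the genotypes stayed apart.

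**Figure D2:**
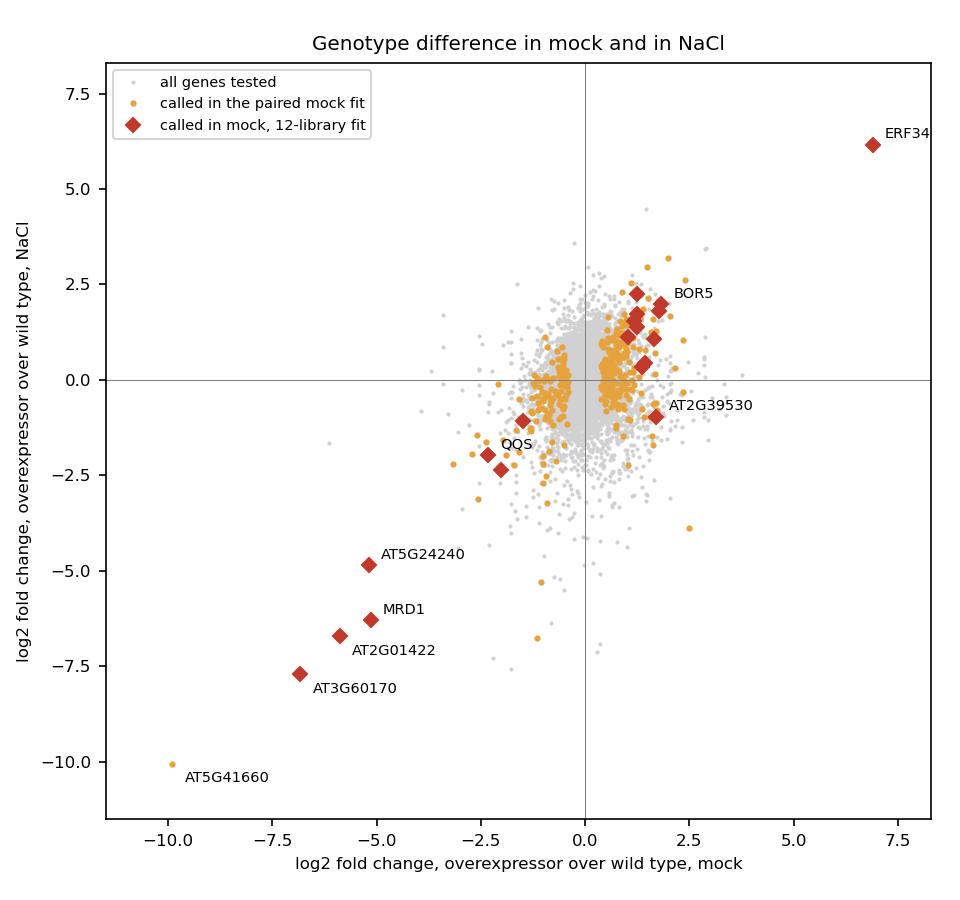
Log2 fold change of the overexpressor over wild type in mock leaves (horizontal axis) and in NaCl (vertical axis), from the 12-library fit, for all 18886 genes tested (grey), those called in the paired mock fit (orange) and the 19 called in the 12-library fit (red). Of the 19, 18 lie in the lower left or upper right quadrant, and AT2G39530 lies in the lower right.

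The exceptions were among the higher genes. AT2G39530 had 15.1, 17.1 and 22.1 CPM in OX in NaCl, against 36.6, 32.3 and 36.9 CPM in Col, and was called lower there (log2 -0.96, adjusted p = 0.0433). AT1G58590 had 9.78, 11.2 and 8.69 CPM in OX in NaCl and 8.73, 7.29 and 7.39 CPM in Col, and AT2G16595 had 14.3, 12.5 and 12.5 CPM in OX and 11.5, 8.65 and 8.96 CPM in Col, and neither was called there. In these 3 genes the Col level was higher in NaCl than in mock leaves. A formal test of the genotype difference between NaCl and mock found no gene at an adjusted p of 0.05 (edgeR), with 2580 genes at an unadjusted p under 0.05. AT2G39530 was nearest among the 19 (log2 difference -2.67, adjusted p = 0.0530).

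Same-numbered OX and Col mock libraries varied together, least clearly in replicate 3. The deviation of each library from its group mean, over all genes tested, correlated at 0.709, 0.777 and 0.328 within the pairs of replicates 1, 2 and 3. Between OX and Col mock libraries of unlike number the correlations ran from -0.724 to 0.264. The highest of these was for OX replicate 3 with Col replicate 1, so pair 3 hardly stands out. The common biological coefficient of variation was 0.249 in the 12-library fit and 0.124 with the pairs as blocks. The labels call the replicates independent and do not say what a number stands for. With the replicate number as a block and the 6 mock libraries alone, 372 of 18167 genes were called (2.05%), 242 higher in OX (1.33%) and 130 lower (0.716%). They included 16 of the 19 genes above. ERF34 itself (adjusted p = 0.0526), AT2G39530 (0.0505) and AT3G60170 (0.0612) missed the threshold in this fit. The paired count has only 2 residual degrees of freedom and rests on the pairs of replicates 1 and 2. Without the pair of replicate 1 no gene was called (3130 at an unadjusted p under 0.05), without that of replicate 2 the count was 12, and without that of replicate 3 it was 635, of which 311 were among the 372. The calls that follow are from this paired fit and are read with that limit. Of 371 that were tested in NaCl, 74 were called there in the same direction (19.9%) and 10 in the opposite direction.

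The largest rises in OX were ranked among paired calls with a mean of 5 CPM or more in a group and no genotype overlap. They included genes annotated as exostosin-family, cellulose synthase-like, WRKY, transporter and protease genes. AT4G13990, a glycosyltransferase gene of the exostosin family, had 7.27, 6.05 and 11.2 CPM in OX mock and 2.18, 0.837 and 1.61 CPM in Col mock (5.37-fold, adjusted p = 0.0213). CSLG1, a cellulose synthase-like gene, had 3.44, 4.1 and 7.56 CPM in OX mock and 0.990, 0.837 and 1.11 CPM in Col mock (5.05-fold, adjusted p = 0.0214). WRKY51, a defence transcription factor gene, had 5.74, 13.0 and 13.2 CPM in OX mock and 1.65, 5.35 and 2.97 CPM in Col mock (3.32-fold, adjusted p = 0.0234). In NaCl AT4G13990 was called higher again (log2 2.62), while CSLG1 (log2 1.04) and WRKY51 (log2 0.17) were not called. A second exostosin-family gene, AT1G68470, was 3.21-fold higher, AT3G05400, a transporter gene of the major facilitator class, 2.99-fold higher, and AT5G48430, an aspartyl protease gene, 3.23-fold higher (adjusted p = 0.0395, 0.020 and 0.020). The putative membrane lipoprotein gene AT4G30670 was 3.34-fold higher (adjusted p = 0.0298).

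The falls were ranked under the same conditions of level and genotype overlap. Beside those named above, the largest were in AT1G51402 (no known role), AT1G62510 and AT4G22490 (both of the lipid-transfer protein class). The long non-coding RNA AT4G38552 and the plastid ribosomal RNA gene rrn23S were also among them. Some paired calls that did not meet the conditions fell more, such as AT3G30122 (log2 -3.40) and AT4G06477 (log2 -3.19). AT1G62510 had 26.5, 25.7 and 32.1 CPM in OX mock, against 97.5, 123 and 138 CPM in Col mock (4.17-fold lower, adjusted p = 0.00361). AT4G22490 had 8.50, 11.4 and 14.6 CPM in OX mock and 23.6, 36.0 and 48.5 CPM in Col mock (3.05-fold lower, adjusted p = 0.00832). Both lipid-transfer genes kept nearly the same ratio in every pair, and both were low in NaCl in either genotype. The rrn23S gene has 2 near-identical copies in the plastid genome, and reads may be split between them. Of 86 plastid genes tested, 11 were called lower and 5 higher, with a median log2 change of -0.25, beside the lower plastid share of counts in each OX library of a pair. Over all genes of the paired fit, 0.716% were called lower and 1.33% higher. The libraries were made from poly(A) RNA, and whether the plastid share varied with the preparation was not tested.

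The most abundant paired calls were of smaller size. MTO3, which makes S-adenosylmethionine, had 875, 877 and 833 CPM in OX mock and 604, 541 and 560.2 CPM in Col mock (1.54-fold higher, adjusted p = 0.0222). GAE6, an enzyme that makes the sugar nucleotide of pectin, had 373, 393 and 438 CPM in OX mock and 197, 184 and 279.97 CPM in Col mock (1.87-fold higher, adjusted p = 0.0214). SIP2, an alpha-galactosidase that breaks down raffinose, had 1227, 1129 and 833 CPM in OX mock and 1802, 1714 and 1058 CPM in Col mock (1.4-fold lower, adjusted p = 0.0443). ERD5, which encodes a proline oxidase, was 1.34-fold lower (adjusted p = 0.0475), and AT3G15450, a protein with YGL and LRDR motifs, was 1.79-fold lower (adjusted p = 0.0298). For SIP2, ERD5 and AT3G15450 the genotypes overlap when the pairing is ignored.

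The promoters of the genes that rose held the dehydration-responsive element more often than promoters in general. The window searched ran from 250 bases before to 50 bases after each gene's start. It was searched for ACCGAC and GCCGAC on both strands, with overlapping matches counted separately. Of all 18758 tested genes with a window, 1859 held at least 1 element (9.91%). Among genes called higher in the paired fit it was 66 of 237 (27.8%), and among genes called lower 10 of 117 (8.55%). The GCC box, GCCGCC, was in 1 of 237 windows of higher genes (0.422%), 5 of 117 of lower genes (4.27%) and 520 of 18758 overall (2.77%). The first 2 of these shares rest on few windows. Among genes called in NaCl, the GCC box was in 7 of 384 higher (1.82%) and 15 of 439 lower windows (3.42%). In the 12-library edgeR calls it was in 0 of 12 higher and 0 of 7 lower windows. Windows of the paired calls had a median GC content of 30.7% for higher genes and 30.7% for lower genes, against 32.0% overall. These shares are descriptions, and a match is not evidence that a protein binds there.

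The shares were also taken with genes called otherwise. With DESeq2 on the 12 libraries, 42 of 141 higher windows (29.8%) and 4 of 48 lower windows (8.33%) held the element. In the smaller 12-library edgeR set it was 5 of 12 higher genes and 0 of 7 lower genes. In NaCl, with other libraries, it was 70 of 384 higher genes (18.2%) and 24 of 439 lower genes (5.47%). Of 49 windows of genes called higher both in the paired mock fit and in NaCl, 22 held it (44.9%). Without replicate 2 the paired fit called 7 higher genes with a window, and neither those nor the 3 lower ones held it. Without replicate 3 it was 85 of 374 higher genes (22.7%) and 18 of 243 lower genes (7.41%).

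The number of elements followed the size of the genotype difference over all genes, without regard to calls. The median log2 ratio of OX over Col in pairs 1, 2 and 3 was -0.0055, -0.019 and -0.032 in 16241 genes with no element. It was 0.049, 0.028 and 0.015 in 1649 genes with 1 element and 0.147, 0.126 and 0.149 in 153 genes with 2 or more. In the same order, 1.05%, 3.34% and 7.19% of the genes were called higher in the paired fit, while 0.659%, 0.606% and 0% were called lower. The shift in the median is small beside the change of single called genes, and it had the same sign in all 3 pairs within each class. The median level of the classes was 18.6, 19.3 and 24.2 CPM.

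**Figure D3:**
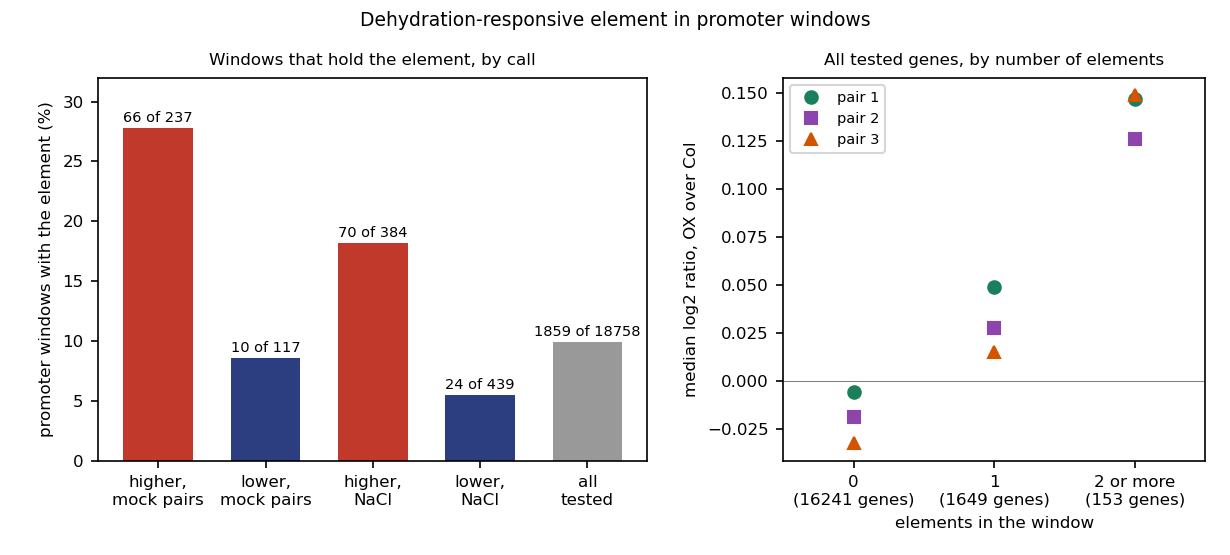
Left, the percentage of promoter windows with ACCGAC or GCCGAC on either strand among genes called higher or lower in OX in the mock pairs, in NaCl and among all genes tested, with counts above the bars. Right, the median log2 ratio of OX over Col in each of the 3 mock pairs for genes with 0, 1 and 2 or more elements, which runs from -0.032 in genes with none to 0.149 in genes with 2 or more.

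The 250 bases before the start are printed here for 4 genes called higher in the paired fit, with the element in capitals as it reads 5′ to 3′ on the gene's strand (GTCGGT and GTCGGC are the element on the other strand). For AT2G22125 the first 30 bases after the start are given, since both of its elements lie there. Sequences and gene starts are from RefSeq's TAIR10.1 assembly and annotation. CESA1 (chr4:15646845-15647094, minus strand) and CEV1 (chr5:1535559-1535808, minus strand) encode cellulose synthases, and AT2G22125 (chr2:9406059-9406088, plus strand) encodes their partner CSI1. BOR5 (chr1:28107572-28107821, plus strand) is the borate transporter gene above. AT3G15480 (chr3:5227936-5228185, minus strand) encodes a DUF1218 protein with 3 elements, of which the first 2 overlap.
CESA1: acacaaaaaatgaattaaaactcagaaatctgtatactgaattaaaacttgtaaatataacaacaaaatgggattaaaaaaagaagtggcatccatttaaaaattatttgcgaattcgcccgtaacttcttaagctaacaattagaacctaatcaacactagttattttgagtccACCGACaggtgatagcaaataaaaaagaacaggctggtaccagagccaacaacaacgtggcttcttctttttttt
CEV1: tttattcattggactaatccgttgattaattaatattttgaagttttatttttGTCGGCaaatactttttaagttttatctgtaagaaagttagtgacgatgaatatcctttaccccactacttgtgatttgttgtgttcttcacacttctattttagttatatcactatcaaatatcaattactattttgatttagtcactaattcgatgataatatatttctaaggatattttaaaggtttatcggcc
AT2G22125: tttagttctGTCGGCtcgacaACCGACtca
BOR5: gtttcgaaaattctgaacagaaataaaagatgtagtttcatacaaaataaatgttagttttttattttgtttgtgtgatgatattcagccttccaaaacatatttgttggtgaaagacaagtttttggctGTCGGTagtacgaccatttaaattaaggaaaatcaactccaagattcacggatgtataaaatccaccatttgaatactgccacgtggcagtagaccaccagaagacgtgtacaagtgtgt
AT3G15480: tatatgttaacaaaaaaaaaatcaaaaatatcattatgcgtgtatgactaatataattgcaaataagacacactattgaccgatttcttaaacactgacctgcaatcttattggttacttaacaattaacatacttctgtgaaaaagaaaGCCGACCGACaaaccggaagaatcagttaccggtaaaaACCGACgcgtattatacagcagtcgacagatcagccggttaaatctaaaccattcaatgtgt

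The element was present in named genes of several roles. ER, the ERECTA receptor kinase that shapes organs and stomatal spacing, had 28.8, 32.4 and 35.7 CPM in OX mock and 16.4, 14.2 and 18.3 CPM in Col mock (2.01-fold, adjusted p = 0.0212). TBL2, of a family that acetylates wall polysaccharides, had 17.6, 23.9 and 22.1 CPM in OX mock and 10.1, 10.6 and 11.2 CPM in Col mock (2.01-fold, adjusted p = 0.0213). Both were called higher in NaCl too, and in both the mock groups do not overlap. There were 11 higher genes with 2 or more elements, 6 of them called higher in NaCl. NDL2 and AT3G15480 had 3 each. AT3G15480 had 30.3, 39.1 and 35.1 CPM in OX mock and 22.4, 27.1 and 26.2 CPM in Col mock (adjusted p = 0.0443). NDL2, of a family that interacts with G proteins, had 40.3, 31.4 and 45.3 CPM in OX mock and 23, 16.6 and 29.0 CPM in Col mock (adjusted p = 0.0214). MUR3, a galactosyltransferase of xyloglucan, had 33.4, 46.3 and 41.7 CPM in OX mock and 17.6, 25.8 and 23.2 CPM in Col mock (adjusted p = 0.020). These genes were picked after their values were seen, as those with 2 or more elements or with 1 element and a call in both treatments.

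An element did not go with a call in every gene. LTI78, the drought and cold gene also known as RD29A and the classic example of this element, has 4 in its window. It had 68.7, 196 and 168 CPM in OX mock and 35.1, 107 and 47.9 CPM in Col mock, a ratio of 2.36 in the paired fit that did not pass (adjusted p = 0.0901). RD26, a NAC factor gene of the abscisic acid response with 1 element, was lower. ERF34 has none in its own window, and the 7 genes that fell in the 12-library fit had none either.

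Several genes of cellulose synthesis were higher in OX. Of 11 members tested, 3 rose and none fell in the paired fit, where 2.05% of all genes were called. The list's median log2 change was 0.34, against 0.000251 over all 18167 genes. The list was chosen with earlier results of these data known, so its count is not independent support. The summed level of the list was 2267 to 2396 CPM in OX mock and 1551 to 1895 CPM in Col mock, which do not overlap. CESA1 had 507, 510.3 and 518 CPM in OX mock, against 344, 318 and 364 CPM in Col mock (1.52-fold, adjusted p = 0.0236). CEV1, which is CESA3, had 483, 523 and 507 CPM in OX mock, against 327, 337 and 343 CPM in Col mock (1.52-fold, adjusted p = 0.0214). AT2G22125, which is CSI1 and links the synthase complex to microtubules, had 142, 133 and 163 CPM in OX mock and 99.4, 87.3 and 121 CPM in Col mock (1.45-fold, adjusted p = 0.0304). All 3 hold the dehydration-responsive element, as printed above, which 9.91% of all tested windows hold. Windows of the list's uncalled members are not described here.

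The other primary-wall members had higher means in OX without passing. CESA6, the third subunit of the primary-wall complex, averaged 281 ± 19.7 CPM in OX mock and 203 ± 35.7 CPM in Col mock (SD, n = 3 each, adjusted p = 0.0552). COB and KOR1, which act in cellulose assembly, had log2 changes of 0.34 and 0.27. The secondary-wall subunits CESA4, CESA7 and CESA8 were low in leaves, averaging 1.61, 1.21 and 1.09 CPM in OX mock and 3.29, 1.62 and 1.74 CPM in Col mock, and did not pass. In NaCl CESA1 was called higher again (715, 749 and 807 CPM in OX, 601, 534 and 527 CPM in Col), while CEV1 and AT2G22125 were not.

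**Figure D4:**
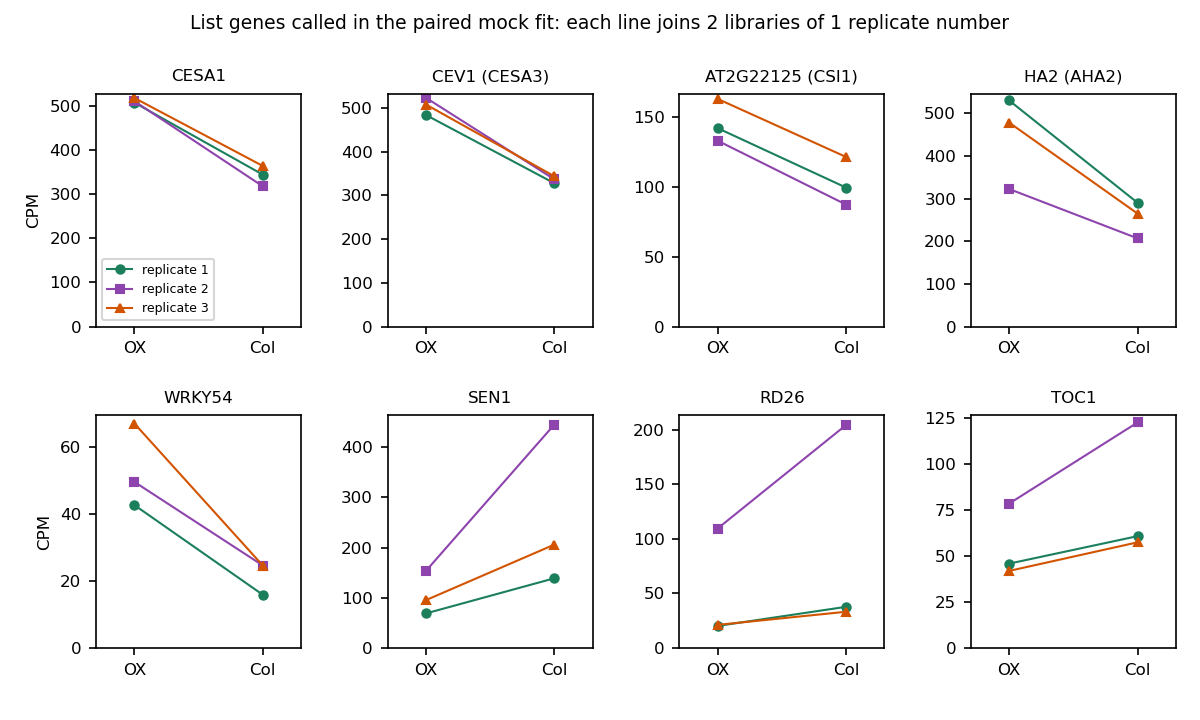
CPM of 8 list genes called in the paired mock fit, with the overexpressor (OX) on the left and wild type (Col) on the right, each line joining the libraries of 1 replicate number. CESA1, CEV1, AT2G22125, HA2 and WRKY54 slope down to Col in every pair, SEN1, RD26 and TOC1 slope up, and in SEN1, RD26 and TOC1 the replicate 2 libraries of both genotypes are the highest.

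In all, 19 of the 380 list genes tested in the paired fit were called, 8 higher and 11 lower, in 10 of the 30 lists. Over all genes 2.05% were called, but the lists were chosen with earlier results of these data known. In the 12-library fit ERF34 was the 1 called member of 395. The salicylate and defence list had 2 higher of 18 and none lower, with a median log2 change of 0.42. NIMIN1, which binds the salicylate regulator NPR1, had 3.14, 2.34 and 6.38 CPM in OX mock and 1.06, 0.644 and 0.619 CPM in Col mock (4.97-fold, adjusted p = 0.0489). WRKY38, a repressor of basal defence, had 3.6, 9.85 and 8.19 CPM in OX mock and 0.594, 3.22 and 3.10 CPM in Col mock (3.3-fold, adjusted p = 0.0298). In NaCl WRKY38 averaged 10.1 CPM in OX and 15.6 CPM in Col (log2 -0.63) and was not called. The marker gene PR1 was at 58.5 ± 43.8 CPM in OX mock and 43.9 ± 25.9 CPM in Col mock (SD, n = 3 each, adjusted p = 0.486). WRKY54, listed under senescence as a negative regulator acting with WRKY70, had 42.7, 49.7 and 67.1 CPM in OX mock and 15.9, 24.7 and 24.6 CPM in Col mock (2.48-fold higher, adjusted p = 0.020).

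Stress and senescence genes that were lower in OX were those with a large shared swing between replicates. RD26 had 20.2, 109 and 21.2 CPM in OX mock, against 37.7, 204 and 33.2 CPM in Col mock (1.74-fold lower in the paired fit, adjusted p = 0.0212). The replicate 2 libraries of both genotypes are far above the others, and OX is below Col in every pair. SEN1 (AT4G35770), a gene that rises in darkness and senescence, had 68.9, 154 and 95.4 CPM in OX mock, against 139, 445 and 206 CPM in Col mock (2.3-fold lower, adjusted p = 0.0212). The file's NAC3 (AT3G15500, also NAC055), a NAC factor gene of jasmonate and drought responses, was 1.86-fold lower, and KIN2, a cold-responsive gene, 1.68-fold lower (adjusted p = 0.0329 and 0.0447). For these 4 genes the groups overlap and the 12-library fit did not call them. The dehydration list had 2 lower of 15 tested and none higher with a median of 0.15, and the senescence list had 1 higher and 2 lower of 22 with a median of -0.074. Across all genes of the paired fit, 0.716% were called lower and 1.33% higher, and both lists were chosen with earlier results known.

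Of the listed stress and senescence genes, ERD10, LTI65, NAC6, NAP and NYE1 did not pass in mock leaves in the 12-library fit, nor in the paired fit where they were tested. ERD10, a dehydrin gene, had 141, 317 and 189.9 CPM in OX mock and 91.7, 267 and 159 CPM in Col mock. LTI65, also RD29B, was too low for the paired fit, at 0.306, 0.780 and 0.394 CPM in OX mock and 0.396, 0.193 and 0.124 CPM in Col mock. The senescence regulators NAC6 (ORE1) and NAP had 36.1, 22.2 and 38.9 CPM and 37.9, 30.2 and 41.8 CPM in OX mock, against 56.9, 24.8 and 19.998 CPM and 63.8, 41.5 and 48.5 CPM in Col mock. The chlorophyll breakdown gene NYE1 had 70.0, 46.2 and 79.1 CPM in OX mock and 63.5, 35.7 and 67.3 CPM in Col mock. In all of these the genotypes overlap.

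Among the remaining lists, aquaporins had 2 lower of 16 and none higher, with a median log2 change of -0.31. Over all genes of the paired fit, 0.716% were called lower and 1.33% higher. The lists were chosen with earlier results of these data known, so such counts are not independent support. PIP1C, a plasma membrane water channel, had 51.6, 72.2 and 56.4 CPM in OX mock and 85.7, 119 and 73.3 CPM in Col mock (1.51-fold lower, adjusted p = 0.0425). PIP3 had 83.7, 72.2 and 71.7 CPM in OX mock and 106, 102 and 109 CPM in Col mock (1.38-fold lower, adjusted p = 0.0476). Both channel genes were below every wild-type library. The clock list had 1 higher and 2 lower of 12. TOC1 and FKF1, evening genes, were 1.4- and 1.5-fold lower, and PRR9, a morning gene, was 1.48-fold higher (adjusted p = 0.0437, 0.0442 and 0.0395).

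Single calls came from 4 more lists. HA2, the plasma membrane proton pump AHA2, had 530.1, 322 and 478 CPM in OX mock and 290.4, 207 and 265 CPM in Col mock (1.75-fold higher, adjusted p = 0.020). In NaCl HA2 averaged 235 CPM in OX and 317 CPM in Col (log2 -0.43) and was not called. ORA59, an ethylene and jasmonate factor gene, had 13.5, 16.5 and 16.4 CPM in OX mock and 24.3, 25.8 and 25.4 CPM in Col mock (1.61-fold lower, adjusted p = 0.0298). CPD, of brassinosteroid synthesis, was 1.33-fold lower, and CYP79B3, of indole glucosinolate synthesis, was 1.38-fold lower (adjusted p = 0.0469 and 0.0416). The other 20 lists had no call. Among them the jasmonate list (25 tested, median -0.58) swung between replicates, its summed level running over 1359 to 5212 CPM in OX mock and 1465 to 6372 CPM in Col mock. The abscisic acid list (19 tested) had a median of 0.13, light harvesting (40 tested) -0.099, chlorophyll breakdown (7 tested) -0.084 and chlorophyll synthesis (12 tested) -0.13.

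Called genes were not gathered in 1 stretch of the genome. The 19 genes of the 12-library fit lay on chromosomes 1, 2, 3 and 5, with 6, 7, 3 and 3 genes (31.6%, 36.8%, 15.8% and 15.8%). Of all genes tested, 26.3%, 15.2%, 19.7% and 23.2% lay on these chromosomes, and 15.1% on chromosome 4. MRD1 and AT1G53490 among the 19 overlap. MRD1 and AT1G53490 were also both lower in the paired fit, where the annotation lists AT1G07887 between them. Beside them, the 372 paired calls held 6 pairs with no other annotated gene listed between the 2. Of these, 4 pairs moved together, among them AT1G51850 and AT1G51860 (receptor kinase genes, higher) and AT2G43530 and AT2G43535 (knottin-like defence peptide genes, lower). ANNAT1, a calcium-binding annexin, averaged 223 CPM in OX mock and 127 CPM in Col mock beside the receptor kinase gene AT1G35710 at 60.1 CPM in OX mock and 38.7 CPM in Col mock. SHM4, of serine and glycine metabolism, averaged 142 CPM in OX mock and 91.0 CPM in Col mock, beside RLP50. The pairs of AT1G53490 with MUM4 and of WRKY26 with PRA1.B6 moved in opposite directions. No background rate of such neighbouring pairs was worked out, so their number is a description only.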

How the data were processed

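The deposited table holds raw counts per gene for 12 libraries, per the file headers. Per the labels' protocols, poly(A) RNA of 3 independent biological replicates per group was made into strand-specific libraries and sequenced on a HiSeq system. TopHat, Cufflinks and TAIR10 are named in the submitters' processing notes, without versions. The strand setting used in counting is not given in the sources used here. Left out were the 7 rows without a gene name, 0.439% to 0.662% of the counts of a mock library.

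Counts were tested in R 4.3.3 with edgeR 4.0.16 (robust quasi-likelihood F test, TMM factors, filterByExpr, Benjamini-Hochberg adjustment, threshold 0.05). One fit used all 12 libraries in 4 groups with 8 residual degrees of freedom. The other used the 6 mock libraries with the replicate number as a block. Same-numbered mock libraries correlated in their deviations (0.709, 0.777 and 0.328), and the corresponding values in NaCl were 0.426, -0.0059 and 0.581. CPM use TMM-scaled totals, and a standard error is the log2 change divided by the square root of F. Adjusted p-values in the text are from the 12-library fit for the 19 genes and ERF34, and from the paired fit elsewhere unless named. Replicates differed by more than sampling noise (chi-square per degree of freedom 11.5 to 53.2). DESeq2 1.42.0, limma 3.58.1, other scalings, other filters and leaving out each replicate were the alternatives. Positions, names and promoter windows are from RefSeq TAIR10.1.

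Genes were named by rank of change among calls with a mean of 5 CPM or more in a group and no genotype overlap. Others were named by level and by membership of gene lists. Genes named for their elements were picked after their values were seen. Members and lists were chosen with earlier results of these data known.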

Additional observations from a re-analysis of the deposited data

Results flagged for a closer look

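In 3 of the genes named here the OX libraries were all above Col in mock leaves and all below Col in NaCl. The genotype difference in NaCl minus that in mock was -2.67 on the log2 scale for AT2G39530 (adjusted p = 0.0530), -2.51 for AT5G48430 (adjusted p = 0.0689) and -2.68 for NIMIN1 (adjusted p = 0.0689). None passed the threshold over all genes in edgeR's test. In NaCl, AT5G48430 had 14.9, 13.0 and 18.3 CPM in OX and 20.6, 30.3 and 29.1 CPM in Col, and NIMIN1 had 14.4, 15.8 and 15.3 CPM in OX and 16.8, 23.1 and 17.0 CPM in Col.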

How the results depend on the processing

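The count of 19 genes (12 higher, 7 lower) was 4 (1 and 3) with the 6 mock libraries alone, 372 (242 and 130) with those libraries and the replicate block, 196 (143 and 53) with DESeq2 and 11 with limma-voom (3 lower). With the replicate block in all 12 libraries it was 23. Calls with the same direction in NaCl numbered 16, against 75 with DESeq2 and 9 with limma-voom, and fits of mock libraries alone give no such value. Called list members numbered 1, against 0 with the 6 mock libraries, 19 with the replicate block, 6 with DESeq2 and 2 without a filter. ERF34 was at log2 6.91 with the 6 mock libraries and 7.05 with the replicate block, with adjusted p of 0.0820 and 0.0526, which miss the threshold. Leaving out 1 library gave 3 to 11 calls (1 to 8 higher, 1 to 3 lower), 2 to 6 of them alike in NaCl, 1 to 2 list members and 6.48 to 7.39 for ERF34. The paired count was 632 (377 and 255) without a filter and 0 to 635 (0 to 378 higher, 0 to 257 lower) without 1 pair, with 5 lower genes without replicate 2. Signs turned in genes not called in the 12-library fit. Without 1 library the log2 change ran over -2.15 (without OX replicate 2) to 0.50 (without Col replicate 2) for RD26, -1.46 to 0.0049 for KIN2 and -0.063 to 0.78 for ERD10. It ran over -0.33 to 0.53 for NAC6 (0.15 without OX replicate 2), -0.0067 to 0.42 for NYE1, -0.85 to 0.051 for AT3G60490 and -0.047 to 0.90 for ERF38. It ran over -0.27 to 0.25 for AT4G16750 (0.12 without OX replicate 1) and -0.42 to 0.45 for AT4G32800 (-0.29 without OX replicate 2). NAC6 was at 0.056 with the replicate block and 0.059 with limma-voom. The cause was not tested. Every OX mock library was shallower than every Col mock library, which limits low genes most in OX.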
